A study of Zea mays with 6 samples.

Results

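The genes described here are 5 dwarfing genes of the gibberellin pathway in maize, chosen by gene identifier from the 45578 genes of the count table. They are 3 synthesis genes, an1 (Zm00001d032961), d3 (Zm00001d045563) and d1 (Zm00001d039634), and 2 DELLA genes, d8 (Zm00001d033680) and d9 (Zm00001d013465). The names were paired with the identifiers when the genes were selected; neither the count table nor the RefSeq gene table used here holds both. RNA was sequenced from ears up to 0.5 cm long of 3 genotypes with 2 libraries each: wild type, a CRISPR line labelled as an RHW1 knockout (rhw1-1), and the line OE#1, labelled as overexpressing RHW1. The overexpression group is thus 1 line; the sources used here give neither the promoter of its transgene, nor the inbred background, nor the number of plants behind a library. The title of the series links RHW1 and ZCN4 to how wide the husk leaves around the ear grow.

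Gibberellins are diterpenoid hormones that promote the elongation of stems and leaves. An1 encodes an ent-copalyl diphosphate synthase, which catalyses the first committed step of the pathway; D3 encodes a cytochrome P450 of the CYP88A family, which oxidises ent-kaurenoic acid in the middle of it; and D1 encodes a gibberellin 3-oxidase, which makes the bioactive hormone in the last step. DELLA proteins such as those encoded by d8 and d9 are repressors of growth that are degraded when the hormone is bound by its receptor, so the level of the protein need not follow that of its transcript. In the maize ear, gibberellin is known for suppressing stamens: recessive synthesis mutants, and dominant d8 mutants whose protein resists the hormone, are dwarfs with anthers in the ear, the trait that gave anther ear1 (an1) its name.

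The libraries held 21094445 to 23999698 counted reads, and all 5 genes passed the filter on low counts, which left 22947 genes. Levels are given as CPM, read counts scaled to library size and to factors for composition (TMM), and the genes are not compared with each other in level, because transcript lengths were not used here. Replicates differed on average by more than counting noise in every genotype, with a mean chi-square of 2.23 to 2.63 per gene. That mean covers the 22317 to 22438 genes with enough reads in a genotype. As separate plants are not stated for the libraries, the spread behind the p-values is that between these samples and may be technical. For each gene it was estimated mostly from all genes. RHW1 itself and markers of ear tissue were not analysed here, so the genotype and tissue labels were not checked against them.

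The transcripts of both DELLA genes were slightly lower in the knockout than in the other genotypes, while no synthesis gene passed the test in any comparison. In the knockout, d9 was lower than in wild type by 14.4% and d8 by 6.17% in the fitted model. There, 4.48% of all tested genes were called lower and 8.52% in either direction. In the class of highest expression, which holds d8 and d9, 19.99% were called. Between overexpression and the knockout, 14.1% of all tested genes were called higher in overexpression and 26.7% in either direction. In the class of highest expression, 45.9% were called in that comparison. DESeq2 kept 1 of the 2 calls in each comparison with the knockout. The calls were also lost without knockout replicate 1. The log2 difference from wild type was then -0.054 for d8, beside -0.092 with all libraries. For d9 it was -0.21 beside -0.22, so that estimate hardly moved. In the overexpression line, 0 of the 5 genes passed the test against wild type, beside 29.2% of all tested genes.

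**Figure D1:**
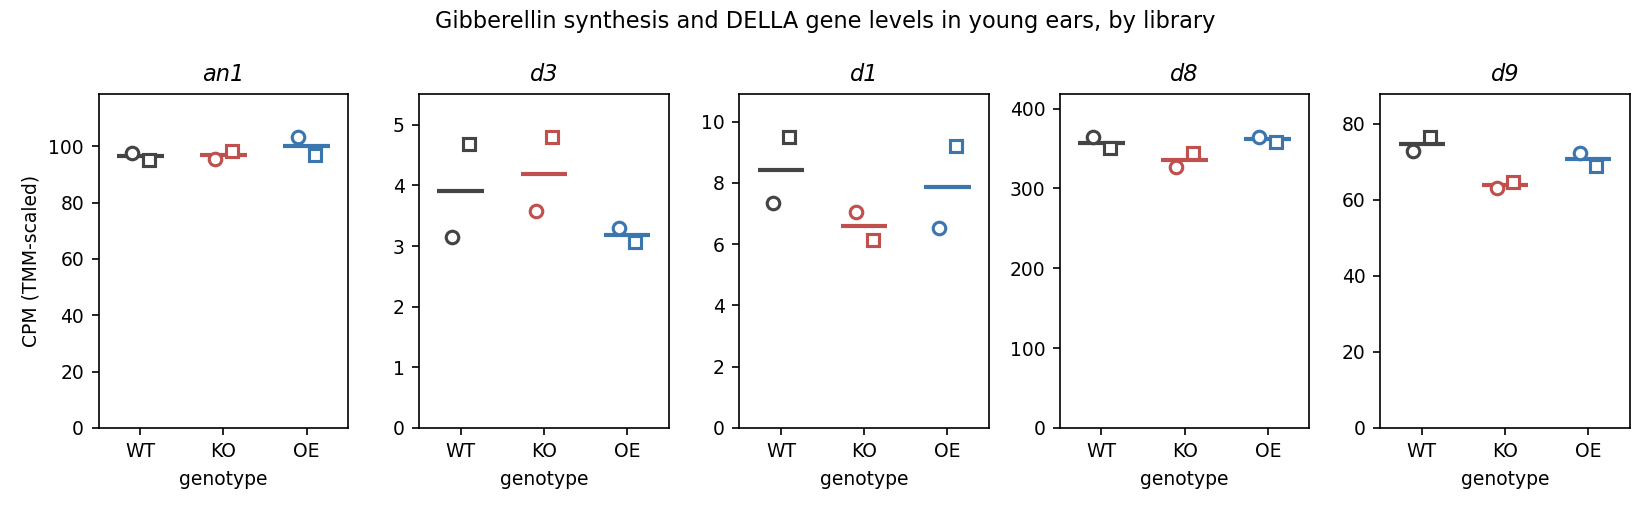
Level of each gene in CPM (y axis, from 0, own scale per gene) in wild type (WT), the RHW1 knockout (KO) and RHW1 overexpression (OE); circles are replicate 1, squares replicate 2 and bars the mean of both. The knockout libraries of d8 and d9 lie below all 4 others, whereas the d3 and d1 libraries of 1 genotype differ by up to 1.48-fold and 1.41-fold.

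Of the synthesis genes, an1 was the steadiest. Its transcript, for the enzyme that opens the pathway, stood at 97.7 and 95.1 CPM in wild-type ears, 95.6 and 98.4 CPM in the knockout, and 103 and 97.0 CPM in overexpression. The genotypes overlapped, and the highest library exceeded the lowest by only 1.09-fold. The means were 96.4 ± 1.85, 97.0 ± 1.97 and 100 ± 4.43 CPM (SD, n = 2), so no neighbour in this order differed from the next beyond the spread between libraries. The log2 difference from wild type was 0.0078 in the knockout (95% interval -0.085 to 0.10) and 0.053 in overexpression (-0.039 to 0.15). The model's intervals thus spanned 0.943-fold to 1.07-fold and 0.973-fold to 1.11-fold, the narrowest among the synthesis genes.

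The d3 transcript, for the kaurenoic acid oxidase, was the most thinly covered, with 69 to 107 reads in a library. Its levels were 3.15 and 4.68 CPM in wild type, 3.58 and 4.80 CPM in knockout ears, and 3.30 and 3.07 CPM in overexpression. Replicates of wild type differed more than the genotype means did, by a log2 gap of 0.57, and counting alone gives such a gap an SD of 0.22. The means were 4.19 ± 0.862 for the knockout, 3.92 ± 1.08 for wild type and 3.19 ± 0.166 CPM for overexpression (SD, n = 2). Both overexpression libraries lay below both knockout libraries but overlapped wild type. The knockout differed from wild type by a log2 value of 0.095 (95% interval -0.37 to 0.56, adjusted p = 0.870, edgeR), which did not pass and was -0.16 without wild type replicate 1 and -0.13 without knockout replicate 2. Against the knockout the log2 difference in overexpression was -0.39 (SE 0.23, 95% interval -0.87 to 0.082, adjusted p = 0.229, edgeR), which did not pass; the interval allows anything from 0.549-fold to 1.06-fold.

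The d1 transcript, for the enzyme of the last step, had the lowest mean in the knockout. It stood at 7.34 and 9.49 CPM in wild type, 7.03 and 6.14 CPM in knockout ears, and 6.51 and 9.21 CPM in overexpression. Both knockout libraries were below both wild-type libraries, while the overexpression libraries lay 1.41-fold apart and overlapped both other genotypes. The means were 8.42 ± 1.52, 6.59 ± 0.630 and 7.86 ± 1.91 CPM (SD, n = 2). The log2 difference of the knockout from wild type, -0.35 (SE 0.17, 95% interval -0.69 to -0.012), had an unadjusted p of 0.0425 but an adjusted p of 0.214 (edgeR), and so did not pass. Overexpression differed from wild type by -0.090 (95% interval -0.42 to 0.24) and from the knockout by 0.26 (-0.081 to 0.60), neither of which passed (adjusted p = 0.729 and 0.272, edgeR). The difference between overexpression and wild type was 0.13 without overexpression replicate 1 and 0.11 without wild type replicate 2. That between overexpression and the knockout was -0.018 without overexpression replicate 2 and 0.48 without overexpression replicate 1 (adjusted p = 0.0542, edgeR). Their directions thus rested on single libraries. These log2 intervals allow a d1 level in overexpression from 0.746-fold to 1.18-fold that of wild type.

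The DELLA gene d8, whose dominant mutants are dwarfs, had 7610 to 8533 reads in a library. Its levels were 364 and 350.3 CPM in wild type, 327 and 344 CPM in knockout ears, and 364 and 359 CPM in overexpression. The knockout libraries were the lowest of the 6, and those of wild type and overexpression overlapped. The means were 357 ± 9.93 CPM for wild type, 335 ± 12.5 CPM for the knockout and 362 ± 3.93 CPM in overexpression (SD, n = 2). In the knockout d8 fell by 0.092 on the log2 scale (SE 0.029, 95% interval -0.15 to -0.032, adjusted p = 0.0447, edgeR). The call was close to the threshold: it was lost without wild type replicate 1 (log2 difference -0.062, adjusted p = 0.414). It was also lost without knockout replicate 1, at -0.054 (adjusted p = 0.432), and in DESeq2, at -0.091 (adjusted p = 0.101).

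Its close copy d9, the other DELLA gene, had the larger estimate in the knockout. It stood at 72.9 and 76.5 CPM in wild type, 63.2 and 64.7 CPM in knockout ears, and 72.4 and 68.9 CPM in overexpression. The 3 genotypes did not overlap. Pairs of genotypes did not overlap in 49.2% to 63.2% of all tested genes, and the share for all 3 at once was not computed. Overexpression was not called against wild type (adjusted p = 0.256, edgeR). Wild type was highest, overexpression next and the knockout lowest. The means were 74.7 ± 2.57, 70.6 ± 2.49 and 64.0 ± 1.05 CPM (SD, n = 2), in that order. In the knockout d9 fell by 0.22 on the log2 scale (SE 0.052, 95% interval -0.33 to -0.12, adjusted p = 0.0042, edgeR), and DESeq2 also called it (adjusted p = 0.0229). Without wild type replicate 2 the difference was -0.19 (adjusted p = 0.0909) and without knockout replicate 1 it was -0.21 (adjusted p = 0.0641), so the call was lost in both cases.

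Over all tested genes, 8.52% were called in the knockout against wild type and 4.48% were called lower; of the 5 genes described here 2 were called, both lower. More highly expressed genes were called more often. When the tested genes were divided by average level into 4 classes of equal size, an1, d8 and d9 fell in the highest class, of which 19.99% were called. The classes that hold d1 and d3 had 4.55% and 1.71% called. The groups did not overlap in 3 of the 5 genes (d1, d8 and d9) and in 49.2% of all tested genes. The median log2 difference of the 5 genes was -0.092, beside 0.00093 over all tested genes, and the median size regardless of sign was 0.095 beside 0.11. In these bulk samples, fewer cells with a transcript and less of it per cell cannot be told apart.

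**Figure D2:**
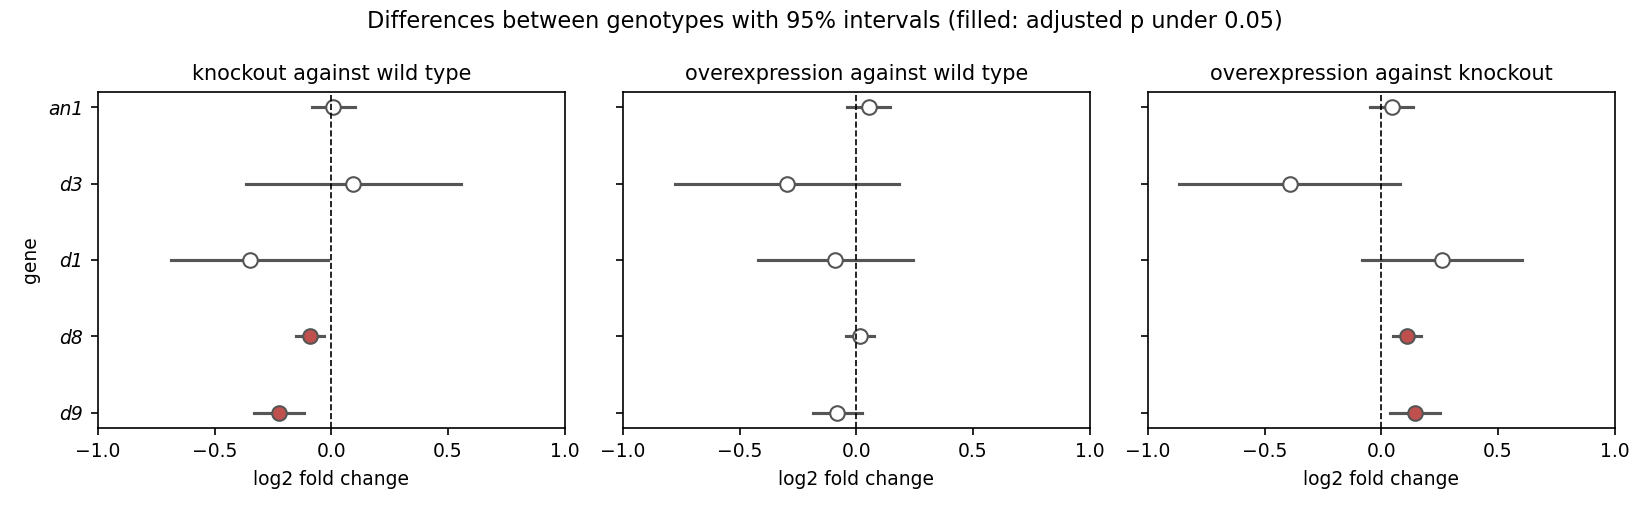
Log2 fold change (x axis) of each gene (y axis) in the 3 comparisons, with lines for 95% intervals of the edgeR fit; filled points passed an adjusted p under 0.05. The filled points are d8 and d9 in both comparisons with the knockout, and the intervals of d3 and d1 are the widest.

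Overexpression against wild type gave no call among the 5 genes, while 29.2% of all tested genes were called and 52.1% of those in the highest class of expression. None of the 5 had an unadjusted p under 0.05 either (the count is 0), and DESeq2 and limma-voom also called 0. The smallest adjusted p was that of d9, at 0.256 (edgeR), for a log2 difference of -0.081 (95% interval -0.19 to 0.024). Its libraries did not overlap between these genotypes, as in 63.2% of all tested genes. For d8 the difference was 0.017 (95% interval -0.043 to 0.077), and for d3 it was -0.30 (-0.78 to 0.18). The interval of d8 keeps its level within 0.971-fold to 1.05-fold of wild type, whereas that of d3 reaches from 0.584-fold to 1.13-fold. The median log2 difference of the 5 genes was -0.081 and its median size 0.081, beside -0.0050 and 0.17 over all tested genes.

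Setting overexpression directly against the knockout, the lines labelled as gain and loss of RHW1, gave 2 calls among the 5 genes, again d8 and d9, beside 26.7% of all tested genes and 45.9% of those in the highest class. Both were called higher in overexpression, as were 14.1% of all tested genes. This comparison shares the knockout libraries with that of the knockout against wild type, so the pair of results is not independent. The level of d8 was higher in overexpression by 0.11 on the log2 scale (SE 0.029, 95% interval 0.049 to 0.17, adjusted p = 0.0051, edgeR), or 1.08-fold. That of d9 was higher by 0.14 (SE 0.053, 95% interval 0.036 to 0.25, adjusted p = 0.0416, edgeR), or 1.10-fold. The synthesis gene an1 differed by 0.045 (95% interval -0.047 to 0.14) and did not pass. The groups did not overlap for d3, d8 and d9, as in 61.1% of all tested genes. Leaving out knockout replicate 1, the library with the lowest level of both DELLA genes, ended both calls (d8 0.071, adjusted p = 0.141; d9 0.13, adjusted p = 0.191). The call of d9 was also lost without knockout replicate 2 (0.16, adjusted p = 0.0844) or overexpression replicate 1 (0.11, adjusted p = 0.285), and in DESeq2 (0.14, adjusted p = 0.143).

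Because close copies can share reads, and no source used here says how reads that match both were handled, the reads of d8 and d9 were also summed into 1 feature. In wild type the sum was 437 and 427 CPM. It was 390 and 409 CPM in the knockout, and 437 and 428 CPM in overexpression. Both knockout sums lay below the 4 others, and the sums of wild type and overexpression overlapped. In the knockout the sum fell by 0.11 on the log2 scale against wild type (SE 0.027, 95% interval -0.17 to -0.058, adjusted p = 0.0055, edgeR). In overexpression the sum differed from wild type by 0.00052 (95% interval -0.055 to 0.056, adjusted p = 0.992, edgeR). The interval limits that difference to between 0.963-fold and 1.04-fold. Against the knockout the sum in overexpression was higher by 0.11 (95% interval 0.059 to 0.17, adjusted p = 0.0016, edgeR). Most of the summed reads were those of d8, so the sum is largely its result again. Tests of the sum were run with all 6 libraries only.

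Within the pair, d8 received most of the reads in every library. Its share was 83.3% and 82.1% in wild type, 83.8% and 84.2% in the knockout, and 83.4% and 83.9% in overexpression. Wild type replicate 2 had the lowest share, with a 95% Wilson interval of 81.3% to 82.8% that covers counting error only; the interval of wild type replicate 1, 82.6% to 84.0%, overlapped those of all knockout and overexpression libraries. Both knockout shares exceeded both wild-type shares, but the difference in share was not tested; an exact two-sided permutation test of 2 libraries against 2 has a smallest p of 0.333. Lengths were not used, so the share is of reads and not of transcripts.

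**Figure D3:**
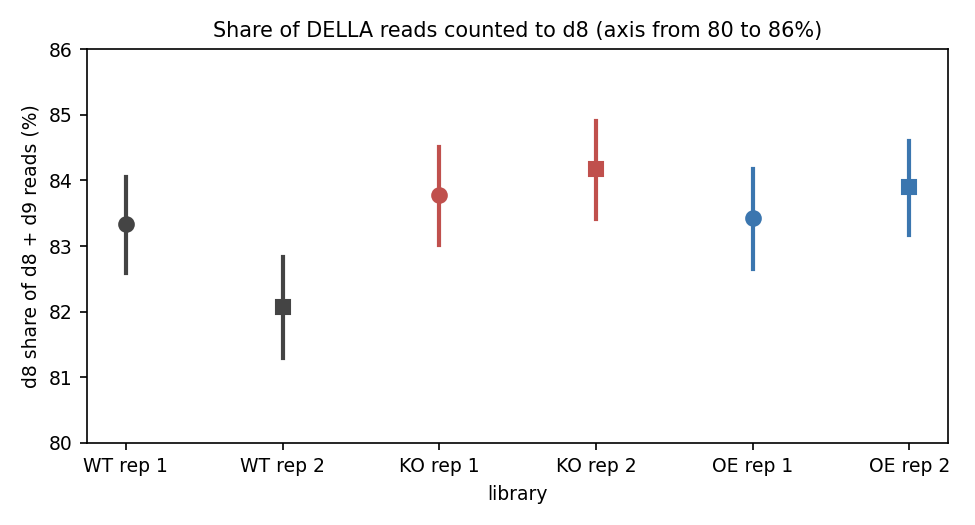
Share of the reads of d8 and d9 that were counted to d8 (y axis in percent, not starting at 0) in each library, with 95% Wilson intervals as lines. Wild type replicate 2 is lowest at 82.1%, and the other libraries lie between 83.3% and 84.2%.

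The balance between DELLA and synthesis transcripts was described as the log2 ratio of the summed DELLA level to each synthesis gene, which has meaning only between libraries because of unequal lengths. Against an1 the ratio was 2.16 and 2.17 in wild type, 2.03 and 2.06 in the knockout, and 2.08 and 2.14 in overexpression. The genotypes did not overlap, and the whole range was 0.14. Overexpression replicate 2, at 2.14, came close to wild type replicate 1, at 2.16. Counting alone gives a log2 gap between replicates of an1 an SD of 0.043. The share of other genes whose ratios separate in this way was not computed. Against d1 the ratio was 5.90 and 5.49 in wild type, 5.79 and 6.06 in the knockout, and 6.07 and 5.54 in overexpression, with all genotypes overlapping. Against d3 it ranged from 6.41 in knockout replicate 2 to 7.12 in overexpression replicate 2. The overexpression ratios to d3, 7.05 and 7.12, lay above those of the knockout, 6.77 and 6.41, while wild type, at 7.12 and 6.51, reached both. These ratios were given no test.

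**Figure D4:**
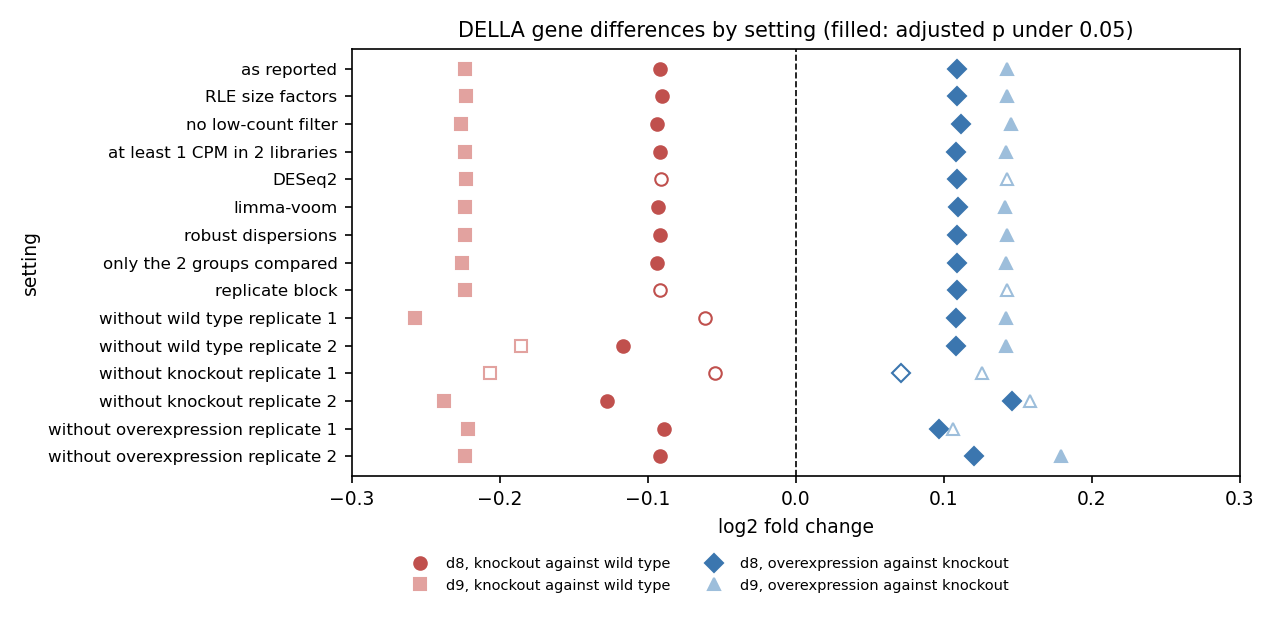
Log2 fold change (x axis) of d8 and d9 in both comparisons with the knockout under each setting (y axis); filled symbols passed an adjusted p under 0.05. Every value keeps its sign, and without knockout replicate 1 no symbol is filled.

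For each of the 5 genes, the other gene with the most similar pattern of log2 CPM over the 6 libraries was taken from the 19676 other genes whose log2 CPM averaged at least 1. These were Zm00001d033906 for an1 (Pearson's r = 0.989), Zm00001d013624 for d3 (r = 0.992), Zm00001d014983 for d1 (r = 0.995), Zm00001d026259 for d8 (r = 0.997) and Zm00001d042398 for d9 (r = 0.998). Each is the highest of 19676 values, taken over only 6 libraries. An r of 0.95 was reached by 17 genes with an1, 28 with d3, 21 with d1, 43 with d8 and 61 with d9. The values describe these libraries, which also share depth and scaling. None of the 5 genes was the nearest to another of them.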

How the data were processed

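The authors deposited 1 table of raw read counts per gene for the 6 libraries; its values are whole numbers whose totals differ between libraries. Per the labels' protocols, the NEBNext Ultra II kit was used on total RNA treated with DNase. Tools named in the submitters' processing notes, with no role given, are HISAT2 2.1.0, HTSeq, StringTie, Trimmomatic 0.35 and edgeR 3.32.1. Genome build, annotation and use of strand: not given in the sources used here, and so no coordinates are printed. Counts were filtered with filterByExpr (minimum count 10), scaled by TMM and tested in 1 fit of all libraries with the quasi-likelihood F-test of edgeR 4.0.16 under R 4.3.3; p-values were adjusted over all 22947 genes (Benjamini-Hochberg) and called below 0.05. The SE of a log2 fold change is its size over the square root of F, and 95% intervals use the fit's total degrees of freedom (3 residual, 33.2 from the prior), so the spread of a gene rests mostly on that of all genes. CPM carry no pseudocount; similarity of patterns used log2 CPM with a prior count of 2. The calculation was tested on simulated data with changes larger than those called here, so it was not tested for calls of this size.

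The named genes were all 5 members, whatever their values, and the single most similar gene for each. The members and lists were chosen with earlier results of these data known. Of 33 other gibberellin gene symbols listed, 5 were in the RefSeq table (assembly Zm-B73-REFERENCE-NAM-5.0) and 0 were paired with an identifier of the count table, so they and the ear and leaf markers were not analysed here. Alternatives were RLE size factors, 2 other filters, DESeq2 1.42.0, limma-voom (limma 3.58.1), robust dispersions, fits of 2 groups, a replicate block, each library left out and summed d8 and d9. The number of unused columns was 0. No batch or date of sequencing is in the labels.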

Additional observations from a re-analysis of the deposited data

How the results depend on the processing

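All 14 alternatives that kept d8 and d9 apart gave the same sign for their differences from the knockout. The knockout call of d8 held in 10 of these 14 and that of d9 in 12. Between overexpression and knockout the calls held in 13 and 9. For each comparison, the 14 include fits without a library of the remaining genotype. Such fits keep every library compared, so they say little about how stable a call is. DESeq2 left 1 of the 5 genes called in each comparison with the knockout (d8 at -0.091 and d9 at 0.14 lost their calls) and called 986, 4455 and 3946 genes in all, beside 1954, 6698 and 6120; the cause was not tested. It gave d3 and d1 no adjusted p in the knockout comparison. The libraries share only a replicate number, not a pairing: the correlations of same-numbered deviations were -0.00862, -0.0139 and 0.00772. With the replicate number as a block, d8 at -0.092 (adjusted p = 0.0700) and d9 at 0.14 (adjusted p = 0.0517) lost their calls, which left 1 in each of these comparisons. Summing d8 and d9 makes 1 feature of them, so 1 was called in each, and their sum differed from wild type in overexpression by 0.00052 where d9 had -0.081. With 1 library left out, 0 to 2 of the 5 genes were called in the knockout and between the lines, beside 909 to 2129 and 4335 to 6027 of all genes. The log2 differences then ranged, in the knockout, from -0.010 to 0.029 for an1, -0.16 to 0.41 for d3, -0.52 to -0.15 for d1, -0.13 to -0.054 for d8 and -0.26 to -0.19 for d9. In overexpression against wild type they ranged from -0.55 to 0.016 for d3, -0.37 to 0.13 for d1 and -0.0089 to 0.046 for d8. Between the lines they ranged from -0.00023 to 0.091 for an1, -0.59 to -0.17 for d3, -0.018 to 0.48 for d1, 0.071 to 0.15 for d8 and 0.11 to 0.18 for d9. The lone library left in a group is assumed there to vary like the other groups. The 11 results not called in the report were called in none of their 165 values under the alternatives, with 11 changes of sign. The DESeq2 values of d3 and d1 without an adjusted p were counted as uncalled. The sum of d8 and d9 was entered for each of them, and 1 of the changes of sign is that of the sum. Libraries held 69 to 107 reads of d3 and 136 to 219 of d1. The replicates of these genes lay up to 0.57 and 0.50 apart on the log2 scale. Their intervals give the differences compatible with the data, not the size needed for a call.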
